A study of Homo sapiens with 6 samples.

Results

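Cholesterol genes were followed in ME180 cells, an epithelial line derived from a human cervical cancer, after small interfering RNA (siRNA) against SGK1, a kinase induced by serum and glucocorticoids. The 31 genes were chosen by name from the 58302 genes of the deposited expression table: 5 regulators of the sterol response, 19 enzymes of cholesterol synthesis, and 7 genes of sterol transport, efflux, storage and the liver X receptors. The siSGK1 group held 3 libraries of cells transfected with siRNA against SGK1 for 48 h. The siControl group held 3 libraries of cells transfected with control siRNA for 48 h. Both groups were the same line and both were transfected. Neither the siRNA sequences nor whether each was a pool is given in the sources used here. Polyadenylated RNA was sequenced, and levels are given as FPKM, fragments per unit of gene length and of library size. The libraries are described by the submitters as biological repeats, numbered 2, 3 and 4 in each group.

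Cells make cholesterol from acetyl-CoA through mevalonate, isopentenyl diphosphate, squalene and lanosterol. The transcription factors SREBP-1 and SREBP-2, encoded by SREBF1 and SREBF2, switch on this pathway. They are made as membrane-bound precursors that SCAP escorts to the Golgi for cleavage when sterols are scarce, and INSIG proteins hold SCAP back in the endoplasmic reticulum when sterols are plentiful. Oxysterols, which accumulate when cholesterol is in excess, activate the liver X receptors (LXRs), which switch on the exporters ABCA1 and ABCG1, the ubiquitin ligase MYLIP and SREBF1. In stratified squamous epithelium, cholesterol is also a component of the barrier lipids.

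The promoters of SREBF2, INSIG1 and ABCA1 are printed because these genes encode an SREBP, a protein that retains the SREBP escort and an LXR-induced exporter, and changed in siSGK1 cells. SREBF1, the other SREBP gene, changed more than SREBF2. Its promoter held none of the motifs searched and is not printed. The sequences are from RefSeq on GRCh38.p14 and run 5′ to 3′ from 250 bases before to 50 bases after the start. They are SREBF2 at chr22:41832855-41833154 on the plus strand, INSIG1 at chr7:155297628-155297927 on the plus strand, and ABCA1 at chr9:104928106-104928405 on the minus strand. Capitals mark a sterol response element and a CCAAT box in SREBF2, a CCAAT box and an E-box in INSIG1, and an E-box and an LXR-type direct repeat in ABCA1.
SREBF2: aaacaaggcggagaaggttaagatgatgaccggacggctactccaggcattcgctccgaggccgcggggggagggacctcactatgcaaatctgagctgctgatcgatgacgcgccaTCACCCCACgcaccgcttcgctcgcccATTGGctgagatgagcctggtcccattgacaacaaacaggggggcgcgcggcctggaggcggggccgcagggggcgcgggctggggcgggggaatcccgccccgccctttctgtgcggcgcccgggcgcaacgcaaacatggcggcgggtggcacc
INSIG1: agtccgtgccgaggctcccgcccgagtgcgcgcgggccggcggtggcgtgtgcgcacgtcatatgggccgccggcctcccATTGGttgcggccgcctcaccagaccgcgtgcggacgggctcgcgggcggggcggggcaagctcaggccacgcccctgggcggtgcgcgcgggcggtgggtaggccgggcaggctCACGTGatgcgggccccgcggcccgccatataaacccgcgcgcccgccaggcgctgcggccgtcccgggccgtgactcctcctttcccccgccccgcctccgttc
ABCA1: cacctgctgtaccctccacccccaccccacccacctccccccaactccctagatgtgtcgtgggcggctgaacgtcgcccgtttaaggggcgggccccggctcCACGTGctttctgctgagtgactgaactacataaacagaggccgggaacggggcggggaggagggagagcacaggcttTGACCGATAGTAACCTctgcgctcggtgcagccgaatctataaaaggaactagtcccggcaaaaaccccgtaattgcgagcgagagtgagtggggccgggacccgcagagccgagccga

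The motifs were read on both strands as TCACNCCAC for the sterol response element, CCAAT for the box bound by NF-Y, CACGTG for the E-box, and AGGTNA, any 5 bases and GGTCA for the LXR-type direct repeat. Of the 31 genes, 27 matched the promoter table, with 38 promoters. ACAT2, FDFT1, SQLE and ABCG1 did not match and were not searched. The sterol response element lay in 1.13% of all 35116 promoters. Among the 27 matched genes it lay only in SREBF2, at bases -133 to -125 counted from the start. The LXR-type repeat lay in 0.094% of all promoters, and among the 27 matched genes only in ABCA1, on the minus strand at bases -69 to -54. A CCAAT box lay in 57.9% of the cholesterol gene promoters, against 34.6% of all promoters, and an E-box in 15.8% against 7.26%. By gene, 20 of the 27 held a CCAAT box and 5 an E-box. Some genes had several promoter windows, and these can overlap, as in SC5D, so the same site can be counted more than once. These matches describe the letters in the windows searched and do not show binding. Elements spelled otherwise or lying outside the windows would be missed, so a gene without a match may still hold one.

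SGK1 itself was lower in the libraries labelled siSGK1. It had 1.58, 1.70 and 1.81 FPKM in siSGK1 libraries, against 3.91, 4.27 and 4.17 FPKM in siControl libraries. The siSGK1 mean was 41.2% of the siControl mean, a log2 change of -1.07 (SE 0.07, limma adjusted p = 1.88e-05), and the exact two-sided permutation p was 0.1, the smallest that 3 against 3 libraries allow. The libraries held 28405647 to 35242643 gene-assigned reads in siSGK1 cells and 27262794 to 27874948 in siControl cells. Replicate pairs differed by 2.99 to 6.98 times the counting variance, so no library repeated another. All 7 squamous epithelial markers reached a mean of 1 FPKM; their summed level was 3626 to 4236 FPKM in siSGK1 cells and 5902 to 6170 FPKM in siControl cells. Most of that gap lay in KRT5, with a mean of 2920 FPKM in siSGK1 cells and 3961 FPKM in siControl cells, and in KRT14, with 541 FPKM in siSGK1 cells and 1388 FPKM in siControl cells. TP63, CDH1 and EPCAM were nearly level, at means of 38.63, 43.4 and 36.8 FPKM in siSGK1 cells and 38.61, 43.1 and 36.9 FPKM in siControl cells. Of the markers of other cell types, 1 of 5 for fibroblasts (COL1A1), 0 of 4 for leukocytes and 0 of 3 for endothelium reached a mean of 1 FPKM, and PECAM1 was at 0 in every library. The summed endothelial markers were 0.710 to 0.881 FPKM in siSGK1 cells and 1.38 to 1.66 FPKM in siControl cells, most of it VWF. The part of these marker differences in the results was not tested.

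Knockdown of SGK1 was accompanied by lower SREBF1, SREBF2 and LXR-arm transcripts, higher INSIG1, and calls in 5 of 18 tested synthesis enzymes. Of the 31 genes, 30 had a mean of at least 1 FPKM and were tested with limma on log2(FPKM + 0.5), with p-values adjusted over all 11945 genes that passed this level. The threshold for a call was an adjusted p below 0.05. INSIG1 and ACAT2 rose, 12 genes fell and 16 were not called. The genes called lower made up 40% of those tested, against 22.7% of all tested genes, and those called higher 6.67%, against 17.9%. The share called in either direction was 46.7%, against 40.6% of all tested genes, so a call is common in this comparison. The median log2 change was -0.15 over the cholesterol genes and -0.006 over all tested genes. In bulk RNA, less transcript in every cell and the loss of transcript from some of the cells cannot be told apart.

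**Figure D1:**
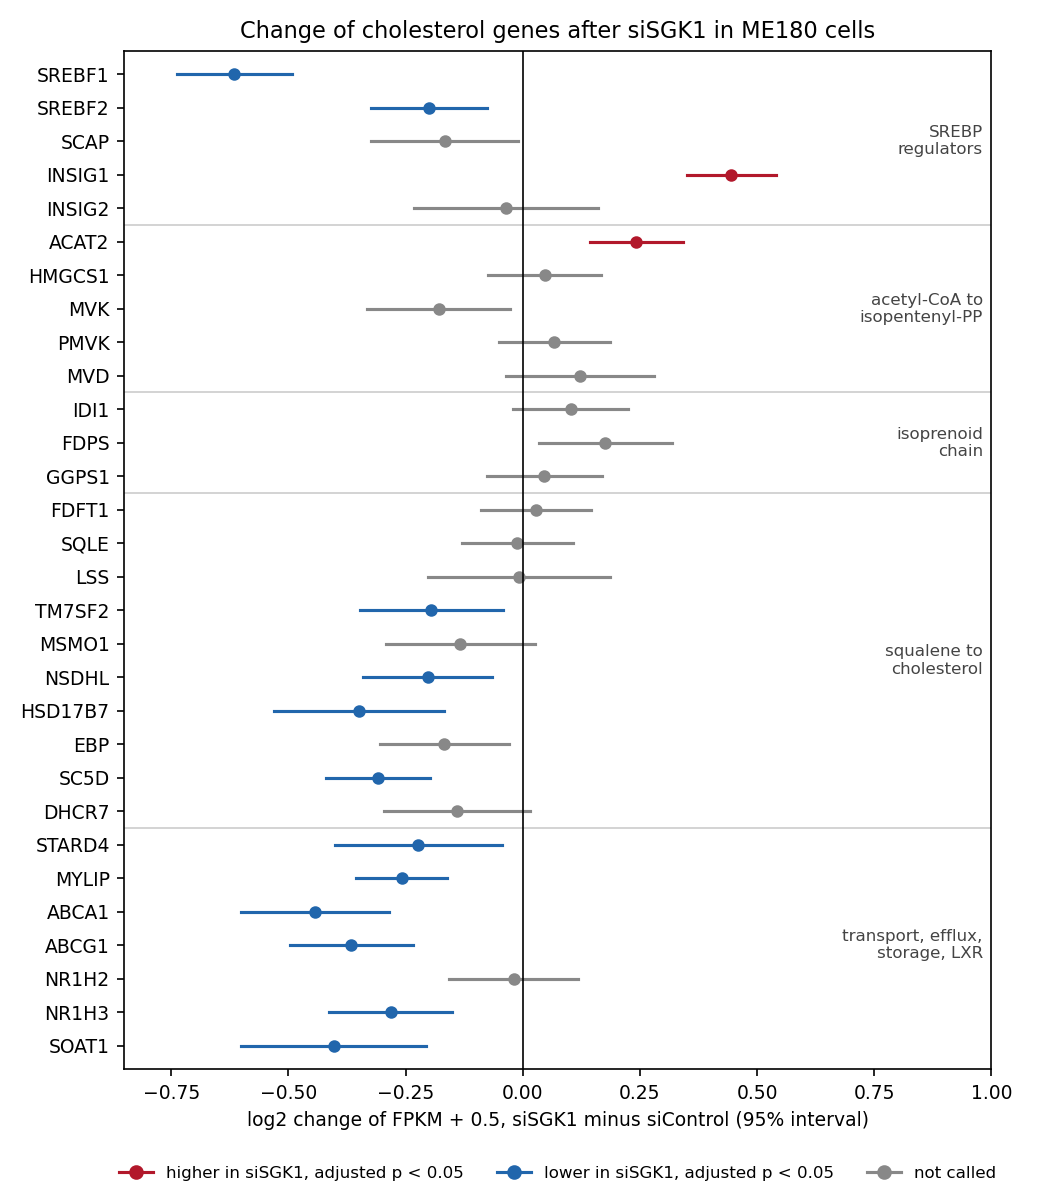
Log2 change (siSGK1 minus siControl) on the log2(FPKM + 0.5) scale for the 30 tested cholesterol genes in pathway order, with 95% intervals from limma; colours mark genes called higher, called lower or not called. SREBF1 has the lowest value, -0.62, and INSIG1 the highest, 0.44.

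Among the 5 regulators, SREBF1 and SREBF2 fell and INSIG1 rose. SREBF1 (ENSG00000072310, chr17:17810399-17837002, minus strand) had 65.1, 58.6 and 65.7 FPKM in siSGK1 libraries, against 98.95, 94.3 and 97.3 FPKM in siControl libraries. It was the most abundant of the 31 genes in both groups, and no siSGK1 library came near the lowest siControl library. Its mean was 63.1 ± 4.0 FPKM in siSGK1 cells and 96.8 ± 2.4 FPKM in siControl cells (SD, n = 3 each), a log2 change of -0.62 (SE 0.05, adjusted p = 7.41e-05). SREBF1 kept its direction and its call in all 15 alternatives tried. Its exons lie partly opposite those of RAI1, over 556 bases, and unstranded counting would not separate their reads.

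SREBF2 (ENSG00000198911, chr22:41833079-41907308, plus strand) had 26.7, 24.0 and 26.8 FPKM in siSGK1 libraries, against 30.4, 29.9 and 28.9 FPKM in siControl libraries. The groups did not overlap, but the gap between the highest siSGK1 and the lowest siControl library was small beside that of SREBF1. The log2 change was -0.20 (SE 0.05, adjusted p = 0.0178), and the adjusted p was 0.0576 without siControl replicate 2 and 0.0611 without siControl replicate 3. SCAP, the escort of the SREBP precursors, was not called, at 12.6 ± 1.2 FPKM in siSGK1 cells and 14.1 ± 0.12 FPKM in siControl cells (adjusted p = 0.0847). Its call changed when siSGK1 replicate 2 was left out (adjusted p = 0.0441).

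INSIG1 (ENSG00000186480, chr7:155297776-155310235, plus strand), which retains SCAP and is itself a classical SREBP target, moved the other way. It had 25.9, 27.2 and 26.7 FPKM in siSGK1 libraries, against 19.3, 19.7 and 19.3 FPKM in siControl libraries. The values within each group lay close together and the groups were far apart. The mean was 1.37-fold higher in siSGK1 cells, a log2 change of 0.44 (SE 0.04, adjusted p = 1.08e-04), called in all 15 alternatives. Its paralogue INSIG2, which lacks this SREBP control, had 2.54 ± 0.31 FPKM in siSGK1 cells and 2.60 ± 0.12 FPKM in siControl cells and was not called (log2 change -0.04, 95% interval -0.23 to 0.16, adjusted p = 0.768).

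**Figure D2:**
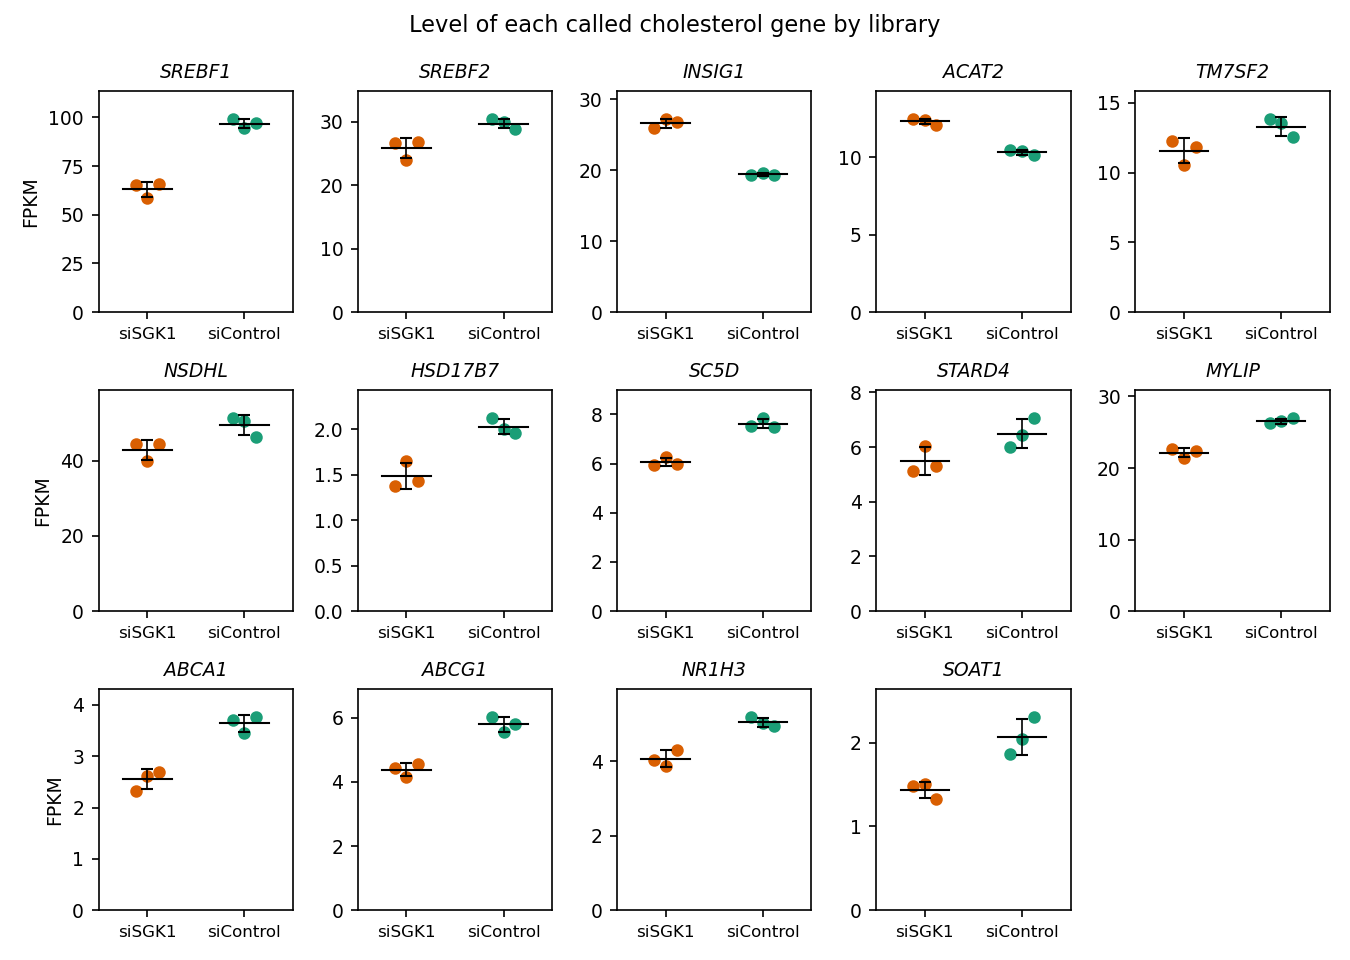
FPKM in each library for the 14 cholesterol genes called at an adjusted p below 0.05, each panel with its own axis from 0; points are libraries, bars are the mean and SD of 3 libraries. INSIG1 and ACAT2 are higher in siSGK1 cells, the other 12 genes are lower, and the groups overlap in STARD4 alone.

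Most synthesis enzymes were not called with the deposited scaling. Of 19 enzymes 18 were tested: 1 rose (5.56%, against 17.9% of all tested genes), 4 fell (22.2%, against 22.7%) and 13 were not called. The median log2 change was -0.01, over stretches of the pathway whose own medians differed in sign. With TPM scaling, 10 of the 18 enzymes were called higher and 0 lower, against 47.3% and 9.8% of all tested genes. The median of all genes was then 0.19. The 12 other cholesterol genes had a median of -0.24, with 1 higher and 8 lower. Summed over all 19 enzymes, the level was 328.8 ± 13.4 FPKM in siSGK1 cells and 339.1 ± 6.75 FPKM in siControl cells (SD, n = 3 each). Over the 13 enzymes not called, the lowest bound of a 95% interval was -0.33, for MVK, and the highest 0.32, for FDPS; other intervals were narrower.

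Of the 5 enzymes that lead from acetyl-CoA to isopentenyl diphosphate, ACAT2 rose. ACAT2 (ENSG00000120437, chr6:159760328-159779055, plus strand), the cytosolic thiolase that joins acetyl-CoA units, had 12.45, 12.4 and 12.1 FPKM in siSGK1 libraries, against 10.47, 10.4 and 10.2 FPKM in siControl libraries. Every siSGK1 library was above every siControl library, with little spread in either group. The mean was 1.19-fold higher, a log2 change of 0.24 (SE 0.04, adjusted p = 0.00273). Part of its exons lie opposite those of TCP1, over 397 bases, and over more bases opposite annotated genes not analysed here, and without stated strand-specific counting their reads cannot be told apart.

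The other 4 enzymes of this stretch were not called. HMGCS1, the HMG-CoA synthase, had 20.6 ± 0.67 FPKM in siSGK1 cells and 19.9 ± 1.1 FPKM in siControl cells. Mevalonate kinase MVK had 5.80 ± 0.50 FPKM in siSGK1 cells and 6.62 ± 0.18 FPKM in siControl cells, a log2 change of -0.18 (adjusted p = 0.0602), and passed without siSGK1 replicate 4 (adjusted p = 0.0351). Over 306 bases the MVK exons lie opposite those of MMAB, whose reads unstranded counting would not separate. Phosphomevalonate kinase PMVK had 25.7 ± 1.1 FPKM in siSGK1 cells and 24.5 ± 1.0 FPKM in siControl cells. These kinases and the synthase thus showed no common direction. The decarboxylase MVD had 16.9 ± 1.5 FPKM in siSGK1 cells and 15.4 ± 0.78 FPKM in siControl cells; left without siSGK1 replicate 3, its log2 change was 0.19 (adjusted p = 0.0261).

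None of the 3 enzymes that build the isoprenoid chain was called. The isomerase IDI1 had 16.3 ± 0.51 FPKM in siSGK1 cells and 15.2 ± 0.84 FPKM in siControl cells (log2 change 0.10). Farnesyl diphosphate synthase FDPS had 22.9 ± 1.5 FPKM in siSGK1 cells and 20.2 ± 1.1 FPKM in siControl cells, a log2 change of 0.18 that just missed the threshold (adjusted p = 0.0512). FDPS passed without siSGK1 replicate 3 (adjusted p = 0.0164) and without siControl replicate 3 (adjusted p = 0.0448). Geranylgeranyl diphosphate synthase GGPS1, which draws isoprenoids towards protein prenylation, had 4.16 ± 0.02 FPKM in siSGK1 cells and 4.02 ± 0.16 FPKM in siControl cells. GGPS1 shares 1422 exonic bases with TBCE, an annotated gene on the same strand that was not analysed here, so its level is uncertain.

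In the stretch between farnesyl diphosphate and cholesterol, 4 of 10 tested enzymes fell (40%, against 22.7% of all tested genes) and none rose (against 17.9%). The lowest adjusted p was that of SC5D (ENSG00000109929, chr11:121292453-121308694, plus strand), the lathosterol oxidase, with 5.96, 6.25 and 5.98 FPKM in siSGK1 libraries, against 7.54, 7.84 and 7.51 FPKM in siControl libraries. The 2 groups formed tight, separate clusters. The siSGK1 mean was 79.5% of the siControl mean, a log2 change of -0.31 (SE 0.05, adjusted p = 0.00145). Over all 18 tested enzymes, 1 was called lower with total-read scaling, against 12.9% of all tested genes, and 0 with TPM scaling, against 9.8%. With total-read scaling 8 of the 18 were called higher, against 36.1% of all tested genes.

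HSD17B7 (ENSG00000132196, chr1:162790702-162812817, plus strand), the 3-ketosteroid reductase of sterol demethylation, had 1.38, 1.65 and 1.43 FPKM in siSGK1 libraries, against 2.12, 2.00 and 1.96 FPKM in siControl libraries. All siSGK1 libraries were below all siControl libraries, on 167 to 229 reads a library. The log2 change was -0.35 (SE 0.08, adjusted p = 0.00822). Its pseudogene copy HSD17B7P2 was listed at a mean of 0.625 FPKM, and the sources do not say how reads were shared between the copies, so the HSD17B7 level is uncertain.

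NSDHL and TM7SF2 fell by less. NSDHL (ENSG00000147383, chrX:152830967-152869729, plus strand), the sterol-4-alpha-carboxylate dehydrogenase, had 44.5, 39.8 and 44.3 FPKM in siSGK1 libraries, against 51.2, 50.6 and 46.4 FPKM in siControl libraries. TM7SF2 (ENSG00000149809, chr11:65111845-65116384, plus strand), a sterol C14-reductase, had 12.3, 10.6 and 11.9 FPKM in siSGK1 libraries, against 13.8, 13.6 and 12.5 FPKM in siControl libraries. In both genes the groups were separate by a narrow margin, with siSGK1 replicate 3 the lowest of its group and siControl replicate 4 the lowest of its own. The log2 change of NSDHL was -0.20 (SE 0.06, adjusted p = 0.0266) and that of TM7SF2 was -0.19 (SE 0.07, adjusted p = 0.045). Leaving out siSGK1 replicate 3 ended both calls, with adjusted p = 0.0549 for NSDHL and 0.101 for TM7SF2. So did leaving out siControl replicate 2 (0.0857 and 0.126, in the same gene order) or siControl replicate 3 (0.0913 and 0.127), and TM7SF2 was also lost without siSGK1 replicate 4 (0.0738). Over all 31 cholesterol genes, siSGK1 replicate 3 was the lowest of its group in 17 and siControl replicate 4 in 16.

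The remaining 6 tested enzymes of this stretch were not called. Squalene synthase FDFT1 had 34.6 ± 1.8 FPKM in siSGK1 cells and 33.9 ± 1.0 FPKM in siControl cells. Squalene epoxidase SQLE, a rate-limiting step and a strong SREBP-2 target, had 14.5 ± 0.61 FPKM in siSGK1 cells and 14.6 ± 0.60 FPKM in siControl cells (log2 change -0.01, 95% interval -0.13 to 0.11). Lanosterol synthase LSS had 11.8 ± 1.4 FPKM in siSGK1 cells and 11.8 ± 0.71 FPKM in siControl cells. The steps around squalene thus differed by less than the spread between replicates. The sterol methyl oxidase MSMO1 had 13.1 ± 0.84 FPKM in siSGK1 cells and 14.5 ± 1.2 FPKM in siControl cells. The isomerase EBP had 45.3 ± 3.3 FPKM in siSGK1 cells and 50.8 ± 2.0 FPKM in siControl cells, just outside the threshold (log2 change -0.17, adjusted p = 0.0547), and passed without siSGK1 replicate 2 (adjusted p = 0.0215). DHCR7, a reductase of the final steps, had 21.9 ± 2.0 FPKM in siSGK1 cells and 24.2 ± 0.99 FPKM in siControl cells (adjusted p = 0.134).

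Read along the pathway, the point estimates with the deposited scaling had different signs early and late. They were above 0 in 4 of the 5 enzymes up to isopentenyl diphosphate, with a median of 0.07, and in all 3 of the isoprenoid chain, with a median of 0.10. They were below 0 in 9 of the 10 tested enzymes after farnesyl diphosphate, with a median of -0.15. Among these, SQLE and LSS lay at -0.01. With TPM scaling, where the median of all genes was 0.19, only NSDHL, HSD17B7 and SC5D of these 10 stayed below 0. The difference between these stretches was not tested, and only 5 of these 18 enzymes were called. Lanosterol demethylase CYP51A1 was left out of the test, at 0.945 ± 0.13 FPKM in siSGK1 cells and 0.708 ± 0.09 FPKM in siControl cells, on 71 to 147 reads a library. It shares 2844 exonic bases with AC000120.2, an annotated gene on the same strand that was not analysed here, so its low level is uncertain.

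**Figure D3:**
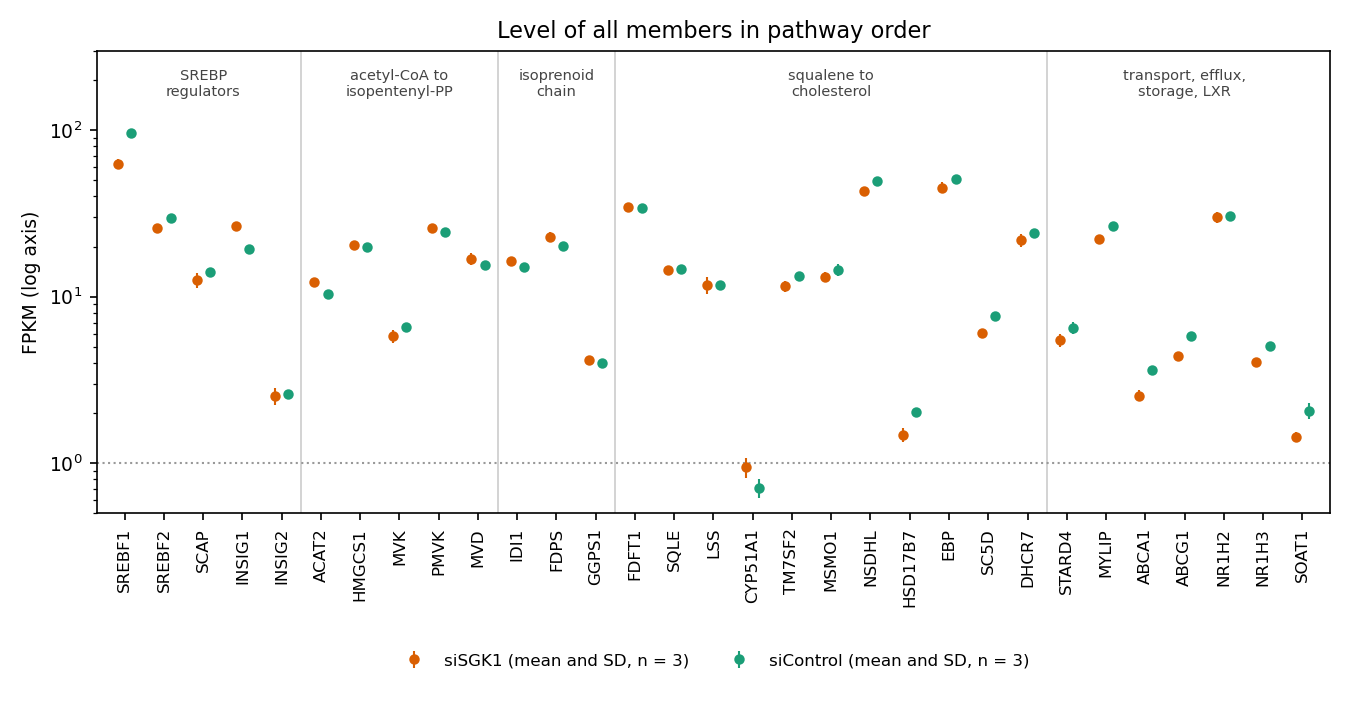
Mean FPKM and SD (n = 3 each, log axis) of all 31 cholesterol genes in pathway order, siSGK1 left of siControl in each pair; the dotted line marks the 1 FPKM level for testing. SREBF1 lies highest, at 63.1 FPKM in siSGK1 cells and 96.8 FPKM in siControl cells, and CYP51A1 lies below the line in both groups.

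Of the 7 transport, efflux, storage and LXR genes, 6 fell (85.7%, against 22.7% of all tested genes) and none rose, with a median log2 change of -0.28. The call of STARD4 was marginal and NR1H2 was not called. ABCA1 (ENSG00000165029, chr9:104781002-104928237, minus strand), which exports cholesterol to apolipoprotein A-I and carries the LXR-type repeat printed above, had 2.33, 2.62 and 2.70 FPKM in siSGK1 libraries, against 3.71, 3.45 and 3.755 FPKM in siControl libraries. The highest siSGK1 library was well below the lowest siControl library. Its siSGK1 mean was 70.0% of the siControl mean, a log2 change of -0.44 (SE 0.07, adjusted p = 0.0014).

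ABCG1 (ENSG00000160179, chr21:42199689-42297244, plus strand), which moves cholesterol towards mature high-density lipoprotein, had 4.44, 4.16 and 4.56 FPKM in siSGK1 libraries, against 6.01, 5.55 and 5.82 FPKM in siControl libraries. The groups were again clearly separate. The log2 change was -0.37 (SE 0.06, adjusted p = 0.0014). Both exporters kept their direction and call in every alternative that gave a value, 14 for ABCA1 and 15 for ABCG1.

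NR1H3 (ENSG00000025434, chr11:47248300-47269032, plus strand), which encodes LXR-alpha, had 4.03, 3.87 and 4.31 FPKM in siSGK1 libraries, against 5.18, 5.03 and 4.94 FPKM in siControl libraries. No siSGK1 library reached the siControl range, although 189 exonic bases lie opposite ACP2. The log2 change was -0.28 (SE 0.06, adjusted p = 0.00495). NR1H2, which encodes LXR-beta and was the more abundant receptor per gene length, was not called, at 30.04 ± 2.3 FPKM in siSGK1 cells and 30.4 ± 0.68 FPKM in siControl cells (log2 change -0.02, 95% interval -0.16 to 0.12).

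MYLIP (ENSG00000007944, chr6:16129125-16148248, plus strand), the LXR-induced ligase that marks lipoprotein receptors for degradation, had 22.6, 21.4 and 22.3 FPKM in siSGK1 libraries, against 26.2, 26.5 and 26.9 FPKM in siControl libraries. Each group varied little and the groups were apart. Its siSGK1 mean was 83.3% of the siControl mean, a log2 change of -0.26 (SE 0.04, adjusted p = 0.00188).

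SOAT1 (ENSG00000057252, chr1:179293714-179358680, plus strand), which esterifies cholesterol for storage, had 1.48, 1.51 and 1.33 FPKM in siSGK1 libraries, against 1.87, 2.04 and 2.30 FPKM in siControl libraries. The groups did not overlap, although the siControl libraries were spread out. The log2 change was -0.40 (SE 0.09, adjusted p = 0.00639). STARD4 (ENSG00000164211, chr5:111496033-111512590, minus strand), a soluble sterol carrier, had 5.12, 6.05 and 5.31 FPKM in siSGK1 libraries, against 5.99, 6.43 and 7.05 FPKM in siControl libraries. It was the one called gene whose groups overlapped, and its call was marginal (log2 change -0.22, SE 0.08, adjusted p = 0.0499). Without siSGK1 replicate 2, siSGK1 replicate 4, siControl replicate 3 or siControl replicate 4, its adjusted p was 0.142, 0.131, 0.104 or 0.147.

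The direction of small changes depended on how libraries were scaled. The deposited FPKM carry size factors that set the median gene near 0. Scaling by total reads moved the median of all genes to 0.12 and scaling to an equal sum of length-corrected levels in every library (TPM) moved it to 0.19 on the log2 scale. The 50 most abundant genes took 16.2% to 17.2% of reads in siSGK1 libraries and 19.98% to 20.1% in siControl libraries, and their part in this shift was not tested. With total reads, 9 cholesterol genes were called higher and 7 lower, against 36.1% and 12.9% of all tested genes. With TPM, 12 were called higher and 3 lower, against 47.3% and 9.8% of all tested genes; the 3 were SREBF1, ABCA1 and ABCG1. Of the 14 calls, SREBF2, TM7SF2 and NSDHL had log2 changes of 0.00049, 0.00133 and -0.000999 with TPM, so their fall is relative to the median gene. STARD4 and MYLIP were at -0.036 and -0.0592 with TPM and were not called there either. Relative to the median of all genes, SREBF1 stood at -0.61 with the deposited scaling, -0.60 with total reads and -0.61 with TPM, and INSIG1 at 0.45, 0.46 and 0.46. These scalings multiply each library by a single factor, so taking off the median removes nearly all of their shift and the values must nearly agree. With quantile normalization, which is not such a factor, SREBF1 stood at -0.53 and INSIG1 at 0.48.

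**Figure D4:**
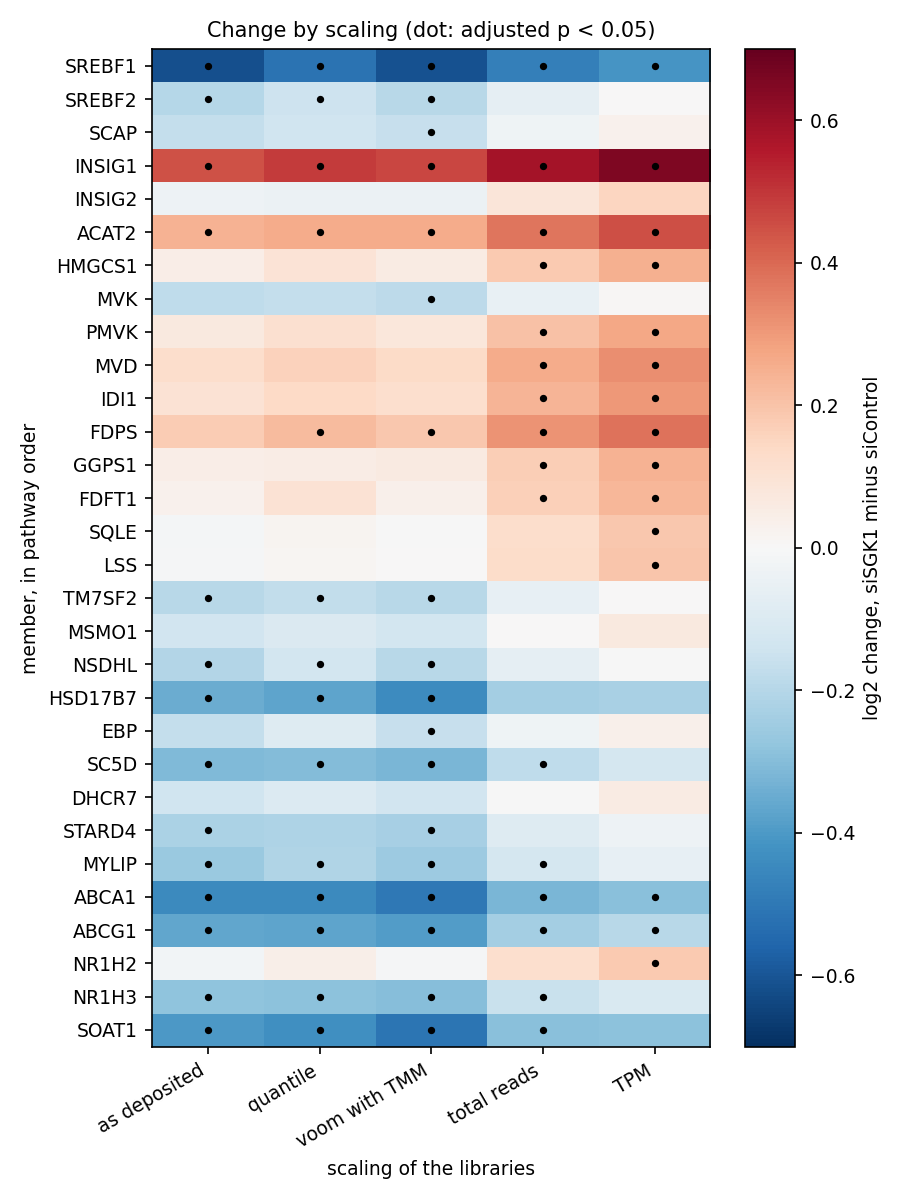
Heat map of the log2 change (siSGK1 minus siControl) of each tested cholesterol gene, in pathway order down the page, under 5 scalings of the libraries; blue is lower and red higher in siSGK1 cells, and a dot marks an adjusted p below 0.05. The columns for total reads and TPM are shifted towards red for nearly every gene, while SREBF1, ABCA1 and ABCG1 stay blue with a dot in all 5 columns and INSIG1 and ACAT2 stay red with one.

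Around the 31 genes, 53 others of the sterol and isoprenoid pathways were listed by name; 45 were tested. Of these 8 rose (17.8%, against 17.9% of all tested genes) and 13 fell (28.9%, against 22.7%), shares near those of all genes. In SREBP processing and sterol-dependent degradation, 2 of 7 tested genes rose (28.6%) and 1 fell (14.3%). The risers were the endoplasmic reticulum lipid-raft proteins ERLIN1 and ERLIN2, which act with INSIG1 in sterol control of SREBP retention. ERLIN1 had 5.35 ± 0.13 FPKM in siSGK1 cells and 3.77 ± 0.30 FPKM in siControl cells (log2 change 0.46, adjusted p = 8.29e-04). ERLIN2 had 4.25 ± 0.16 FPKM in siSGK1 cells and 2.73 ± 0.22 FPKM in siControl cells (log2 change 0.56, adjusted p = 3.78e-04). The ubiquitin ligase RNF139 fell, with a log2 change of -0.18 (adjusted p = 0.0367). The site-specific proteases MBTPS1 and MBTPS2, which cleave the SREBPs, were not called, with log2 changes of -0.01 and 0.21.

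Of 12 tested sterol uptake and transport genes, 2 rose (16.7%, against 17.9% of all tested genes) and 1 fell (8.33%, against 22.7%). OSBP, an oxysterol-binding protein that carries cholesterol to the Golgi, had 16.2 ± 0.65 FPKM in siSGK1 cells and 12.9 ± 0.23 FPKM in siControl cells (log2 change 0.31, adjusted p = 0.00126). STARD3NL, a late endosomal relative of STARD3, had a log2 change of 0.30 (adjusted p = 0.031). The endocytic lipoprotein receptor LRP1 fell to 2.998 ± 0.24 FPKM in siSGK1 cells, against 4.75 ± 0.40 FPKM in siControl cells (log2 change -0.59, adjusted p = 5.98e-04).

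The genes that use isoprenoids split evenly, with 4 of 14 higher and 4 lower (28.6% each, against 17.9% and 22.7% of all tested genes). COQ2, which attaches the polyprenyl tail to the ubiquinone ring, had 10.3 ± 0.37 FPKM in siSGK1 cells and 7.03 ± 0.14 FPKM in siControl cells (log2 change 0.52, adjusted p = 1.01e-04). NUS1, a subunit of the dolichol-forming prenyltransferase, had a log2 change of 0.49 (adjusted p = 9.41e-04), and PDSS2, a subunit of the enzyme that makes the ubiquinone tail, 0.48 (adjusted p = 0.00238). Their partner subunits did not share this: PDSS1 fell, with a log2 change of -0.25 (adjusted p = 0.0134), and DHDDS, the partner of NUS1, was not called (log2 change -0.03). The Rab prenyltransferase subunit RABGGTA fell to 14.1 ± 0.90 FPKM in siSGK1 cells, against 19.4 ± 1.1 FPKM in siControl cells (log2 change -0.45, adjusted p = 6.82e-04).

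Fatty acid genes that SREBP-1 controls fell in 5 of 9 tested cases (55.6%, against 22.7% of all tested genes) and rose in none (against 17.9%), with a median log2 change of -0.27. The cytosolic acetyl-CoA synthetase ACSS2 had 13.0 ± 1.2 FPKM in siSGK1 cells and 18.4 ± 0.58 FPKM in siControl cells (log2 change -0.49, adjusted p = 8.76e-04). The stearoyl-CoA desaturase SCD had 105.5 ± 2.8 FPKM in siSGK1 cells and 127.1 ± 3.8 FPKM in siControl cells (log2 change -0.27, adjusted p = 0.00173). FADS2, a fatty acid desaturase, and LPIN1, a phosphatidate phosphatase, also fell, with log2 changes of -0.30 (adjusted p = 0.0155) and -0.28 (adjusted p = 0.0097). FADS2 spans the opposite strand of FADS1, so reads of that pair may be mixed. FASN, the fatty acid synthase, was not called, at 37.2 ± 3.5 FPKM in siSGK1 cells and 36.8 ± 0.60 FPKM in siControl cells. Of the other LXR-induced genes, 2 of 3 tested fell (66.7%, against 22.7% of all tested genes) and none rose. SMPDL3A had a log2 change of -0.61 (adjusted p = 0.00896), on 46 to 102 reads a library. The phospholipid transfer protein PLTP had a log2 change of -0.34 (adjusted p = 0.0274). LPCAT3 was not called, with a log2 change of 0.02 (adjusted p = 0.808).

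The 7-base sequences tied to the changes by an earlier search of these same data, 4 in number, were looked up in the 3′ UTRs of the cholesterol genes, and 4 genes held one of them. They are printed to show where these genes hold them; capitals mark the 7 bases, and the transcripts are from GENCODE 29 on GRCh38.
STARD4 site at base 338 of its UTR: ggtgcacgccaCTATGCAtggctaatttt
STARD4 site at base 1878: catatgtagaaCTATGCAgccatcagcac
SOAT1 site at base 3386: cttactaatctTATGCAAaatttcatgta
SOAT1 site at base 4338: agagaggataaTATGCAAccaccctagtt
TM7SF2 site at base 178: agtgaccaaaaTCGGAGAtgctcttcctc
MVK site at base 370: ggcctggttccCGGAGAAgtgtgccttct

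Of 10272 tested genes with an annotated 3′ UTR, 874 held CTATGCA, the sequence in STARD4. TATGCAA, the sequence in SOAT1, was in 1175, TCGGAGA, in TM7SF2, in 219, and CGGAGAA, in MVK, in 252. Because the sequences were picked for going with the changes in these libraries, the calls of the genes that hold them are no separate evidence. STARD4, SOAT1 and TM7SF2 were called lower and MVK was not called. Genes holding CTATGCA and TATGCAA were called lower in 35.7% and 28.7% of cases, against 22.5% and 23.0% of genes without. Genes holding TCGGAGA and CGGAGAA were instead called higher in 35.2% and 31.75% of cases, against 17.6% of genes without the sequence in each case. The fall of TM7SF2 thus ran against the direction that goes with its sequence. The part of these sequences in any change was not tested, and the other 26 tested cholesterol genes held none of the 4.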

How the data were processed

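The authors deposited one table of gene-level FPKM for 58302 genes and 6 libraries, 3 siSGK1 and 3 siControl, matched to samples by title. Reads were aligned with HISAT2 2.0.5 and counted with featureCounts 1.5.0-p3, with bcl2fastq 2.19 and hg19 also named, per the submitters' processing notes. The gene positions in the table match GENCODE 29 on GRCh38 for 97.4% of shared IDs, and are given on that build. Neither the strand setting nor the handling of multi-mapped reads is given in the sources used here. Values came back as whole reads in 100% of cases (tolerance 0.001), 27262794 to 35242643 reads a library, and the deposited FPKM carry median-of-ratios size factors.

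The test was limma 3.58.1 in R 4.3.3 on log2(FPKM + 0.5), with an intensity trend and no covariate, for the 11945 genes whose mean reached 1 FPKM, adjusted by Benjamini-Hochberg over all of them. Fold changes on this scale understate those of low genes. The script was tested on simulated data. Alternatives were other pseudocounts, level filters and scalings, voom on the recovered reads, a replicate block, and each library left out. Members and lists were chosen with earlier results of these data known. Every called member is given by library; from the other lists, called genes are named, at most 4 with the largest changes; PDSS1 and the genes named as not called there were picked after their values were seen. P-values measure the spread between these libraries of 1 cell line. No set test was run.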

Additional observations from a re-analysis of the deposited data

How the results depend on the processing

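SREBF1, ABCA1, ABCG1, INSIG1 and ACAT2 kept their direction and call in every alternative that gave a value; SC5D, MYLIP, NR1H3 and SOAT1 lost theirs only with TPM scaling, and HSD17B7 with total-read or TPM scaling. The count of cholesterol genes called higher, 2, became 9 with total reads and 12 with TPM. With a library left out it was 2 to 4 (4 without siSGK1 replicate 3, where FDPS and MVD joined). The count called lower, 12, became 7 with total reads and 3 with TPM, and 8 to 13 with a library left out. With no level filter it was 8, as SREBF2, TM7SF2, NSDHL and STARD4 lost their calls. STARD4 also lost its call with a pseudocount of 0.1 and with quantile normalization (adjusted p = 0.0633). Of the 53 other genes, 8 were called higher, against 4 with a mean FPKM of at least 5 (26 tested), 17 with total reads and 24 with TPM, and 7 to 9 with a library left out. The 13 called lower became 8 with no level filter, 6 with total reads and 5 with TPM, and 10 to 14 with a library left out. Among changes called in either setting, signs turned only with TPM, for SREBF2 (0.00049), TM7SF2 (0.00133), SQLE (0.19, adjusted p = 0.0229), LSS (0.194, adjusted p = 0.0419) and NR1H2 (0.183, adjusted p = 0.00666); TPM moves every gene with the median. Of called genes, 44.2% were higher with the deposited scaling, 51.2% with quantile normalization, 73.6% with total reads and 82.8% with TPM. Low read counts leave CYP51A1 (71 to 147 reads a library) untested and limit SMPDL3A (46 to 102).

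With a replicate block, 2 cholesterol genes were called higher and 13 lower, and 8 and 12 of the other genes. Whether same-numbered libraries were handled together is not known. Their deviations from the group means correlated at 0.116, 0.014 and -0.103. siSGK1 replicate 2 correlated best with siControl replicate 2, but siSGK1 replicate 3 with siControl replicate 4 (0.149). Deviations from a mean of 3 libraries depend on each other, so these values cannot decide whether the libraries are paired.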
